A study of Mus musculus with 10 samples.

Results

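The 10 genes described here are Spp1, Cst7, Axl, Itgax, Gpnmb, Lpl, Cd9, Cd63, Ctsd and Cd68, which rise in disease-associated microglia or belong to their lysosomes. They were taken by name, with earlier results of these data known, and are 10 of the 28871 genes in the count table. All 10 passed the filter on low counts and are among the 19093 genes tested. The samples are whole hippocampus of wild-type male C57BL/6J mice aged 2 months. The Visudyne group (5 samples, numbered 3, 6, 9, 12 and 15) received verteporfin, a light-activated drug, into the cisterna magna, followed by red light of 689 nm applied over the closed skull, in order to destroy the lymphatic vessels of the meninges. The vehicle group (5 samples, numbered 1, 4, 7, 10 and 13) received vehicle in place of the drug, and the procedure is described in the same words for both groups. Both had the procedure again after 2 weeks, and tissue was taken 2 weeks after the last one. The labels do not say that each sample is 1 animal, so p-values measure the spread between these samples, which may in part be technical.

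Microglia are the resident macrophages of the brain. Near amyloid plaques, damaged myelin or dying neurons they lower genes of the resting state, such as P2ry12 and Tmem119, and raise a set of genes for lipid handling, phagocytosis and lysosomal digestion, a change that depends in part on the lipid receptor Trem2. The lysosomal side of this state is served by proteases such as cathepsin D and by membrane proteins of late endosomes, and the transcription factor Tfeb drives many lysosomal genes through the CLEAR element in their promoters. Several of the 10 genes are also expressed outside microglia: Lpl by hippocampal neurons, Cd9 and Cd63 by glia and vascular cells, Ctsd by most cells, Spp1 by cells of vessels and brain borders, and Itgax by dendritic cells.

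Depth was 51165271 to 68895223 estimated counts per sample, and values are CPM, counts scaled to a common total (TMM), given as mean ± SD with n = 5 per group. The tissue label was checked with markers: each of 10 hippocampal neuron genes passed the filter, with summed levels of 645 to 749 CPM, and all 16 genes of resting microglia were detected in every sample, with sums of 333 to 416 CPM. The first principal component held 41.4% of the variance and did not separate the groups. At its ends lay vehicle 1 and Visudyne 15.

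None of the 10 genes passed the test between Visudyne and vehicle. By edgeR's quasi-likelihood test 0 of 10 were called at an adjusted p under 0.05, and the adjusted p was 0.9999 for each. Across all genes tested, 0.021% were called higher and 0% lower with Visudyne. DESeq2 and limma voom also called 0 of 10, against 0.0793% and 0.021% of all genes each of them tested. At an unadjusted edgeR p under 0.05 there was 1 of 10, Spp1, against 1.7% of all genes. In none of the 10 genes did all Visudyne samples lie above all vehicle samples, which held for 0.319% of all genes, and in none did they all lie below, which held for 0.115%. The log2 fold change, Visudyne minus vehicle, was positive for 10 of 10 genes with a median of 0.049, beside 51.1% positive and a median of 0.0022 over all genes tested. For 7 of the 10 it was under 0.1, and the 95% intervals of these 7 reached from 0.86-fold to 1.24-fold at their widest. The 10 signs are not separate results, because the genes vary together over the same samples. Of 45 pairs of these genes, 16 had a Pearson r of log2 CPM above 0.5 and 7 below -0.5. In at least 1 alternative processing, 5 of the 10 signs changed. In bulk tissue, fewer cells of a type and less RNA per cell cannot be told apart.

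**Figure D1:**
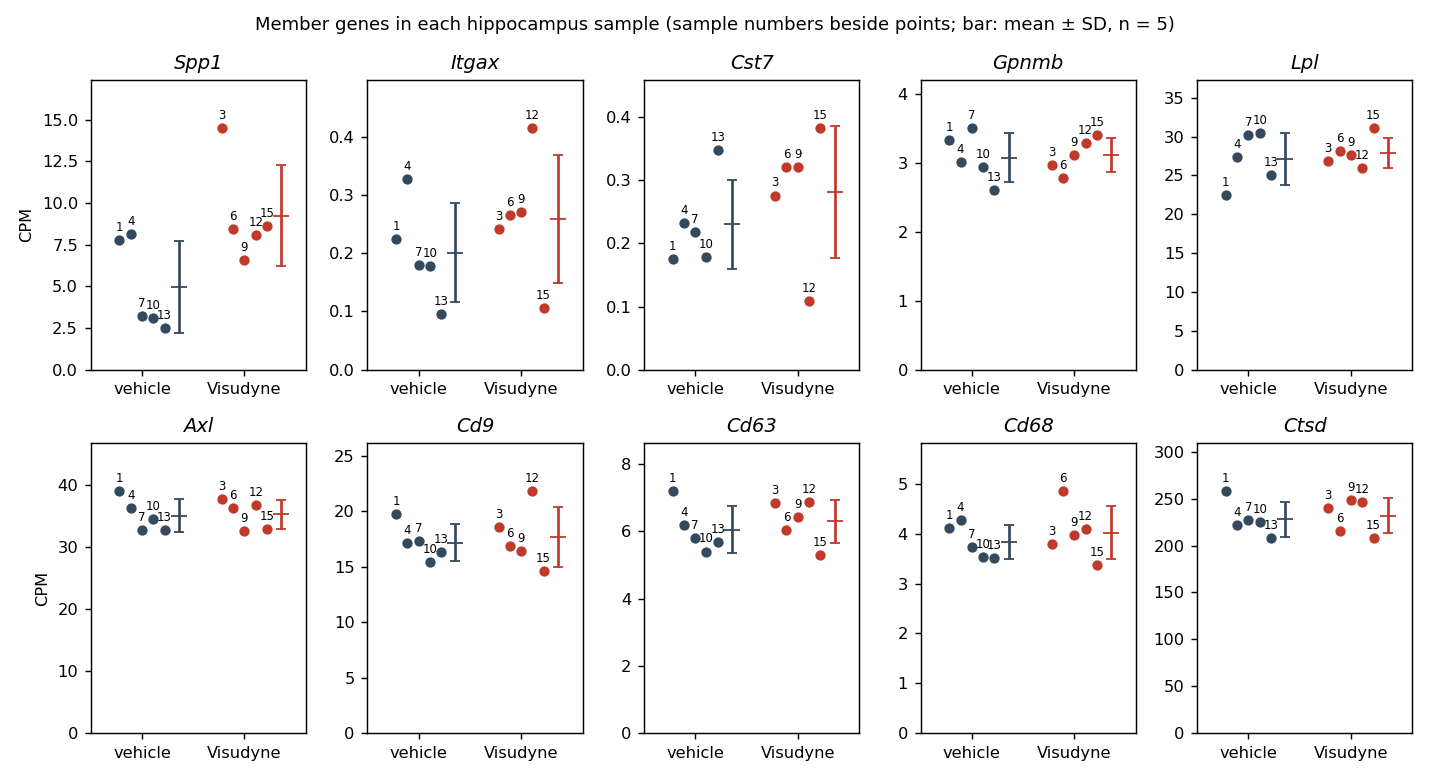
Level of each of the 10 genes in CPM (vertical axes) in the 5 vehicle and the 5 Visudyne samples, each point a sample with its number, and bars the mean ± SD of the group. The groups overlap in every gene, and Spp1 shows the widest gap between means, 4.95 against 9.24 CPM.

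Levels between genes are compared as CPM per kilobase of exon, over all 10 samples. Ctsd stood far above the rest at a mean of 97.8 (range 88.3 to 110). Cd9 followed at 8.52 and Axl at 6.99, and their ranges overlapped. Spp1 at 4.31 varied so widely, from 1.53 to 8.83, that it overlapped with Cd9, Axl, Cd68 (3.13), Lpl (2.63) and Cd63 (1.68). Below these came Gpnmb at 0.474, Cst7 at 0.26 and Itgax at 0.0479, whose ranges did not overlap with each other. The order of Lpl depends on the transcript taken: over its longest transcript alone it measured 6.69 CPM per kilobase, above Cd68 at 3.19, because its exons cover 10478 bases in all and its longest transcript 4115.

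**Figure D2:**
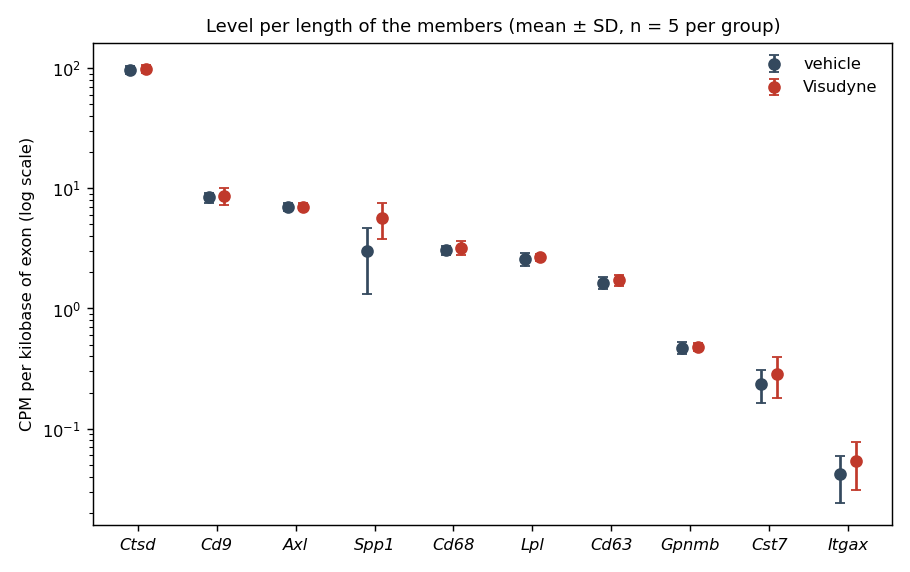
Level per length, in CPM per kilobase of exon on a log axis, of the 10 genes, as mean ± SD of the vehicle and of the Visudyne group (n = 5 each). Ctsd lies at 96.9 ± 7.84 with vehicle and 98.7 ± 8.08 with Visudyne. Itgax, the lowest, lies at 0.0418 ± 0.0177 and 0.054 ± 0.0229.

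Spp1 encodes osteopontin, a secreted phosphoprotein that binds integrins and CD44. The gene (ENSMUSG00000029304) spans chr5:104435118-104441050 on the plus strand (mm10). Another annotated gene, Gm42793, overlaps exons of Spp1 on the same strand and has no row in the count table. Spp1 measured 14.5, 8.41, 6.58, 8.08 and 8.61 CPM in Visudyne samples 3, 6, 9, 12 and 15, and 7.78, 8.11, 3.22, 3.1 and 2.52 CPM in vehicle samples 1, 4, 7, 10 and 13. Vehicle samples 1 and 4 lay within the range of the Visudyne samples and the other 3 lay below all of them, and 3 Visudyne samples exceeded every vehicle sample. The group means were 4.95 ± 2.75 and 9.24 ± 3.07 CPM. The log2 fold change was 0.90 (SE 0.34, 95% interval 0.17 to 1.63, or 1.12-fold to 3.1-fold), with an unadjusted edgeR p of 0.0198 and an adjusted p of 0.9999, so the difference did not pass. Leaving out Visudyne 3 gave a log2 fold change of 0.68.

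Markers of border cells varied between the same samples. The levels of 11 genes of border macrophages and monocytes, 9 of them tested, were summed. The sums were 15.1, 12.6, 9.53, 10.6 and 14.6 CPM in Visudyne samples 3, 6, 9, 12 and 15. In vehicle samples 1, 4, 7, 10 and 13 they were 13.5, 13, 9.4, 9.31 and 8.17 CPM. The 16 fibroblast genes summed to 702, 485, 387, 422 and 517 CPM in the Visudyne samples and to 594, 542, 314, 379 and 227 CPM in the vehicle samples. In both sums Visudyne 3 was highest and vehicle 13 lowest, as for Spp1. Ptgds, which other brain cells also express, made up 54.2% to 72.6% of the fibroblast sum. Without it the other 15 genes gave 173 to 213 CPM with Visudyne and 78.6 to 169 CPM with vehicle, without overlap. Visudyne 6 was then the highest sample (213 CPM), above Visudyne 3 (204 CPM), and vehicle 13 stayed the lowest, so the match with Spp1 held only in part. All 16 had a positive log2 fold change (median 0.45), 2 were called higher (Col1a1 and Col6a2, edgeR adjusted p = 0.0485 each), and none was called lower. Both calls were lost when Visudyne 3, 6, 9, 12 or 15 or vehicle 7, 10 or 13 was left out (edgeR adjusted p from 0.0578 to 0.279). That of Col6a2 was also lost without vehicle 1 (0.0588). With all samples, both were lost with upper-quartile factors (edgeR adjusted p = 0.0596) and without mitochondrial genes (0.0508). Col1a1 was also lost when at least 1 CPM in 5 samples was required (0.05001). DESeq2 called Col1a1 (adjusted p = 1.18e-08) and Col6a2 (8.51e-08), and limma voom also called both. Of the border macrophage genes 7 were positive and 2 negative and edgeR called none, and no tested gene of either list was at 0 in any sample. The part of these cells in the Spp1 values was not tested.

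The promoter of Spp1 is shown because it is the 1 gene of the set with an unadjusted p under 0.05, and that of Ctsd because it is the most abundant and the 1 with a CLEAR core. RefSeq promoter windows (GRCm38.p6, from 250 bases before to 50 after the transcript start) were found for 9 of the 10 genes, in 10 windows. Spp1 had 2 of these windows, and only the 1 that holds the motif marked below is shown. The 250 bases before the start follow, 5′ to 3′ on the strand of the gene. In Spp1 (chr5:104434861-104435110, plus strand) the capitals mark GAGGAAGT, a motif of the myeloid factor PU.1. In Ctsd (chr7:142387828-142388077, minus strand) they mark TCACGTGA, the core of the CLEAR element, and a further E-box CACGTG.
Spp1: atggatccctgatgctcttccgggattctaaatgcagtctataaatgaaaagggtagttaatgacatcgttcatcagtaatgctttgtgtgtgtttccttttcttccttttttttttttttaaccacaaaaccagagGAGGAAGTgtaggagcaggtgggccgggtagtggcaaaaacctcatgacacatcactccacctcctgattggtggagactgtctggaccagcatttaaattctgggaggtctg
Ctsd: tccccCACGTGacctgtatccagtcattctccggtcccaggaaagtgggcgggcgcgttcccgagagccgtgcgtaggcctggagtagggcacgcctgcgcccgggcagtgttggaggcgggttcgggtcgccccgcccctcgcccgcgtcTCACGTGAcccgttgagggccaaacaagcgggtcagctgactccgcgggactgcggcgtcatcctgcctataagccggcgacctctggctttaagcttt
The annotation used for coordinates (GENCODE M21) places the outer end of Ctsd at position 142388038, further upstream than the RefSeq start, so most of the Ctsd stretch lies inside that gene model.

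Motifs were searched as exact letters on both strands over the whole windows. GAGGAAGT was present in 1 of the 2 Spp1 windows, starting 113 bases before its start, and in no other window of the 10 genes. Of all 32851 windows, 3.2% hold it. TCACGTGA was present in the Ctsd window alone, 99 bases before the start, beside 0.974% of all windows and 6 of 51 windows (11.8%) of the lysosomal list. Its inner CACGTG is counted again as an E-box, which 7.15% of all windows and 14 of 51 lysosomal windows (27.5%) hold. The AP-1 motif TGAGTCA, which reads TGACTCA on the other strand, was present in 3 of the 10 windows, those of Cd68, Itgax and Gpnmb, beside 5.2% of all windows, and the M-box TCACATGA in 0 of 10 beside 0.986%. These matches describe letters in a window and not bound sites.

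Ctsd, Cd68, Cd63 and Cd9 form the lysosomal and tetraspanin side of the set, and none of them moved with the treatment beyond the spread of the samples. Ctsd encodes cathepsin D, the main aspartic protease of the lysosome (ENSMUSG00000007891, chr7:142375911-142388038, minus strand). It rested on at least 11370 counts per sample. Levels were 240, 216, 249, 247 and 208 CPM in Visudyne samples 3, 6, 9, 12 and 15, and 258, 222, 227, 225 and 208 CPM in vehicle samples 1, 4, 7, 10 and 13. An annotated gene, Gm49369, overlaps exons of Ctsd on the same strand and has no row in the count table. The highest sample was vehicle 1, and the lowest value, 208 CPM, occurred in both groups. The log2 fold change was 0.027 (SE 0.069, edgeR unadjusted p = 0.70), with a 95% interval of 0.919-fold to 1.13-fold. A difference of 1.2-fold lies outside that interval.

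Cd68 encodes macrosialin, a heavily glycosylated membrane protein of phagocyte lysosomes (ENSMUSG00000018774, chr11:69664213-69666153, minus strand). It measured 3.8, 4.85, 3.98, 4.09 and 3.38 CPM in Visudyne samples 3, 6, 9, 12 and 15, and 4.12, 4.27, 3.73, 3.54 and 3.52 CPM in vehicle samples 1, 4, 7, 10 and 13. Visudyne 6 was the highest sample and Visudyne 15 the lowest, so the Visudyne group enclosed the vehicle group. With a log2 fold change of 0.070, the difference was smaller than its SE of 0.11 (95% interval -0.17 to 0.31).

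Cd63 and Cd9 are tetraspanins, membrane proteins that organise other proteins into domains, and Cd63 resides mainly in late endosomes, lysosomes and exosomes. Cd63 (ENSMUSG00000025351, chr10:128900989-128912822, plus strand) measured 6.84, 6.04, 6.43, 6.87 and 5.3 CPM in Visudyne samples 3, 6, 9, 12 and 15, and 7.19, 6.18, 5.8, 5.4 and 5.69 CPM in vehicle samples 1, 4, 7, 10 and 13. Cd9 (ENSMUSG00000030342, chr6:125460266-125494791, minus strand) measured 18.6, 16.9, 16.4, 21.8 and 14.6 CPM in the Visudyne samples and 19.8, 17.1, 17.3, 15.4 and 16.3 CPM in the vehicle samples, in the same order. In both genes Visudyne 12 and vehicle 1 were the 2 highest samples and Visudyne 15 was the lowest. The log2 fold changes were 0.056 (SE 0.099, 95% interval -0.16 to 0.27) for Cd63 and 0.037 (SE 0.10, 95% interval -0.18 to 0.26) for Cd9.

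Axl, Itgax and Gpnmb encode proteins of the cell surface. Axl is a receptor tyrosine kinase that recognises phosphatidylserine on dying cells through its ligand Gas6 (ENSMUSG00000002602, chr7:25757273-25788705, minus strand). It measured 37.7, 36.3, 32.6, 36.8 and 33.0 CPM in Visudyne samples 3, 6, 9, 12 and 15, and 39.0, 36.3, 32.7, 34.6 and 32.8 CPM in vehicle samples 1, 4, 7, 10 and 13. The group means were 35.3 ± 2.32 and 35.1 ± 2.65 CPM, and the log2 fold change of 0.0084 (SE 0.063, 95% interval -0.13 to 0.14) was the smallest of the 10.

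Itgax encodes CD11c, an integrin subunit used as a marker of dendritic cells and of plaque-associated microglia (ENSMUSG00000030789, chr7:128129547-128150657, plus strand). Only 6 to 23 counts per sample were available. It measured 0.242, 0.265, 0.27, 0.415 and 0.105 CPM in Visudyne samples 3, 6, 9, 12 and 15, and 0.224, 0.328, 0.179, 0.178 and 0.095 CPM in vehicle samples 1, 4, 7, 10 and 13. The lowest 2 samples were vehicle 13 and Visudyne 15. The log2 fold change of 0.37 had an SE of 0.39 and a 95% interval of -0.47 to 1.22, which includes 0. Dendritic cell genes and class II antigen-presentation genes, listed together, summed to 22.5 to 28.9 CPM with Visudyne and 18.7 to 22.1 CPM with vehicle, without overlap. The 2 kinds of gene differed. Log2 fold changes ran from 1.09 to 1.39 for the tested class II genes, Cd74 included. For the tested dendritic cell genes they ran from -0.54 to 0.11. The invariant chain gene Cd74 measured 1.55 ± 1.08 and 4.07 ± 0.743 CPM in vehicle and Visudyne samples (log2 fold change 1.39), and edgeR called 0 of the 8 tested genes. With limma voom and sample quality weights Cd74 was called (log2 fold change 1.90, adjusted p = 0.0462). The part of dendritic cells in the Itgax values was not tested.

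Gpnmb encodes a transmembrane glycoprotein of endolysosomes and the cell surface (ENSMUSG00000029816, chr6:49036546-49070929, plus strand). It measured 2.97, 2.78, 3.11, 3.28 and 3.4 CPM in Visudyne samples 3, 6, 9, 12 and 15, and 3.32, 3.01, 3.5, 2.93 and 2.6 CPM in vehicle samples 1, 4, 7, 10 and 13. Both the highest and the lowest sample were vehicle samples. Gpnmb had a log2 fold change of 0.016 (SE 0.11, 95% interval -0.22 to 0.25).

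Lpl encodes lipoprotein lipase, which releases fatty acids from triglyceride-rich lipoproteins (ENSMUSG00000015568, chr8:68880491-68907448, plus strand). It measured 26.9, 28.1, 27.6, 25.9 and 31.1 CPM in Visudyne samples 3, 6, 9, 12 and 15, and 22.5, 27.4, 30.2, 30.4 and 25.0 CPM in vehicle samples 1, 4, 7, 10 and 13. Its order of samples differed from that of Ctsd and Cd63: vehicle 1 was the lowest and Visudyne 15 the highest. For Lpl the log2 fold change was 0.042 (SE 0.084, 95% interval -0.14 to 0.22).

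Cst7 encodes cystatin F, an inhibitor of cysteine cathepsins in the endolysosomes of immune cells (ENSMUSG00000068129, chr2:150570415-150578944, plus strand). It was counted 6 to 23 times per sample. Levels were 0.276, 0.321, 0.321, 0.108 and 0.383 CPM in Visudyne samples 3, 6, 9, 12 and 15, and 0.176, 0.232, 0.218, 0.178 and 0.348 CPM in vehicle samples 1, 4, 7, 10 and 13. Visudyne 12 was the lowest sample and Visudyne 15 the highest, the reverse of the order of these samples in Itgax. The log2 fold change was 0.29 (SE 0.34), and its 95% interval of -0.45 to 1.02 includes 0.

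**Figure D3:**
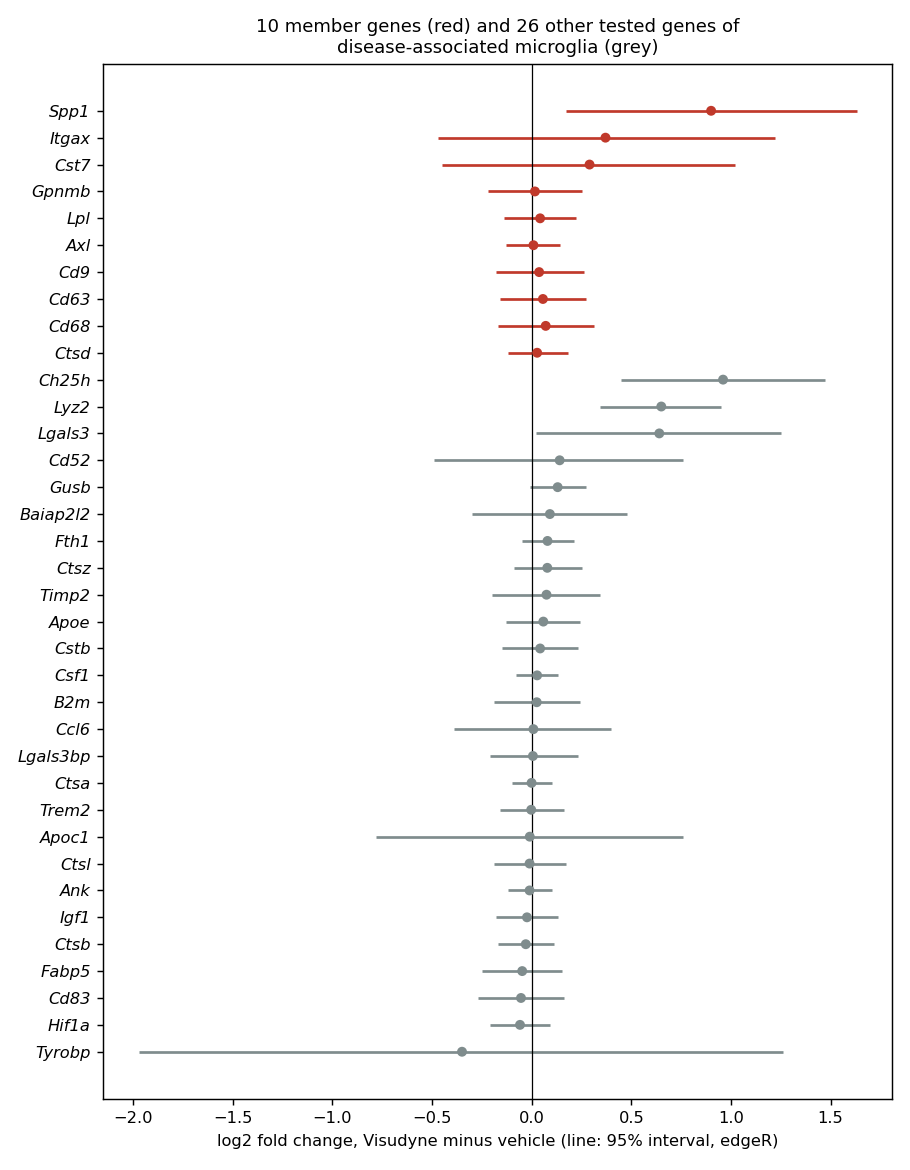
Log2 fold change, Visudyne minus vehicle, with its 95% interval for the 10 genes (red) and 26 other tested genes of disease-associated microglia (grey). The interval of Spp1 runs from 0.17 to 1.63, and those of the other 9 of the 10 genes include 0.

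Set against the summed level of the 16 resting microglia genes in the same sample, several of the 10 genes varied less between samples. Ctsd equalled 60.3% to 63.5% of that sum in every sample, 61.9% ± 0.693 with vehicle and 61.5% ± 1.46 with Visudyne. Its coefficient of variation over the 10 samples was 1.78% on this scale and 7.74% in CPM. Cd63 went from 10.5% to 5.24% and Cd9 from 12.2% to 7.26%. The coefficient was larger on this scale for Lpl (14.4% against 9.6%), Cst7 (39.0% against 34.4%) and Cd68 (11.3% against 11.1%). It changed little for Axl (6.08% against 6.67%), Spp1 (49.1% against 50.2%) and Gpnmb (9.22% against 9.28%). For Itgax it was 38.8% against 42.5%. Spp1 equalled 1.32% ± 0.68 of the sum with vehicle (range 0.757 to 2.23) and 2.46% ± 0.811 with Visudyne (range 1.68 to 3.79), and the groups overlapped. The ratios of all 10 genes in a sample share its denominator, and no test was made on these ratios. Vehicle 1 was highest in the resting microglia sum (416 CPM). It was also highest in the sums of lysosomal (4937 CPM), oligodendrocyte (2681 CPM) and oligodendrocyte precursor genes (210 CPM). The astrocyte sum was highest in Visudyne 12 (5131 CPM) and the neuron sum in vehicle 10 (749 CPM). No other denominator was tried, so the lower variation is not shown to be particular to microglia.

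**Figure D4:**
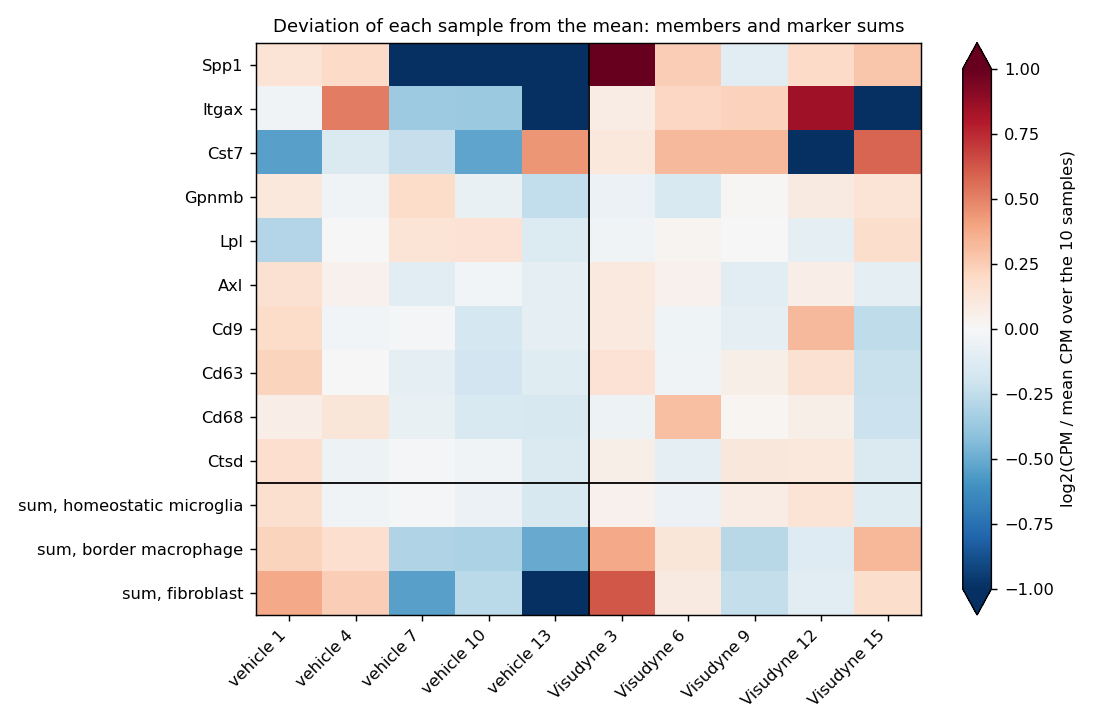
Log2 ratio of each value to its mean over the 10 samples (colour, limited to 1 in either direction) for the 10 genes and for the summed markers of resting microglia, border macrophages and fibroblasts, with samples as columns. Vehicle 1 is high in Ctsd, Cd63 and Axl and low in Lpl, while Spp1 is low in vehicle samples 7, 10 and 13.

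Other genes of disease-associated microglia were taken from a list of 30, of which 26 were tested, 15 with a positive and 11 with a negative log2 fold change and a median of 0.017. By edgeR none was called, and 3 had an unadjusted p under 0.05, against 1.7% of all genes tested. The 2 of smallest p, Lyz2 and Ch25h, are given first. Lyz2, the lysozyme of myeloid cells, measured 3.8 ± 0.89 CPM with vehicle and 5.95 ± 0.255 CPM with Visudyne, where all 5 Visudyne samples lay above the vehicle samples (log2 fold change 0.65, SE 0.14, edgeR adjusted p = 0.768). Among the alternatives, DESeq2 alone called it (adjusted p = 0.0242). Ch25h, cholesterol 25-hydroxylase, measured 0.24 ± 0.0601 and 0.466 ± 0.0376 CPM, again without overlap (0.96, SE 0.23, edgeR adjusted p = 0.9999). Apoe, the main lipid carrier of the brain, measured 724 ± 93.9 and 754 ± 63.9 CPM, with a log2 fold change of 0.058 and a 95% interval of -0.13 to 0.24. The lipid receptor Trem2 measured 7.72 ± 0.673 and 7.7 ± 0.354 CPM, with a log2 fold change of -0.0028 and an interval of -0.16 to 0.16. Its adaptor Tyrobp ranged from 4 to 261 counts per sample and had an SE of 0.74. Clec7a, the receptor dectin-1, was too low to be tested, with 1 to 25 counts per sample.

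Of 48 lysosomal genes 47 were tested, and none was called or had an unadjusted p under 0.05 by edgeR. Their log2 fold changes ran from -0.16 to 0.27 with a median of 0.0082, 31 positive and 16 negative. The cysteine protease Ctsb measured 337 and 330 CPM in vehicle and Visudyne samples (-0.03, SE 0.064). The membrane glycoproteins Lamp1 (202 and 203 CPM) and Lamp2 (63.1 and 63.8 CPM) differed by less than their spread between samples. The regulator Tfeb measured 5.4 and 5.41 CPM (0.0018, SE 0.10). Resting microglia genes did not pass edgeR's test either: 11 were positive and 5 negative with a median of 0.071 and a range of -0.09 to 0.11. P2ry12, the ADP receptor of resting microglia, measured 23.9 and 22.6 CPM (-0.078), Tmem119 13.5 and 14.2 CPM (0.077) and the fractalkine receptor Cx3cr1 36.8 and 37.0 CPM (0.0068).

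Median log2 fold changes of other cell type lists were 0.16 for border macrophages, 0.60 for dendritic and class II genes, 0.047 for astrocytes, -0.016 for oligodendrocytes, -0.033 for their precursors, -0.025 for endothelium, -0.054 for hippocampal neurons and -0.23 for choroid plexus. By edgeR none of these lists had a called gene. No list had a gene at 0 in every sample.

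**Figure D5:**
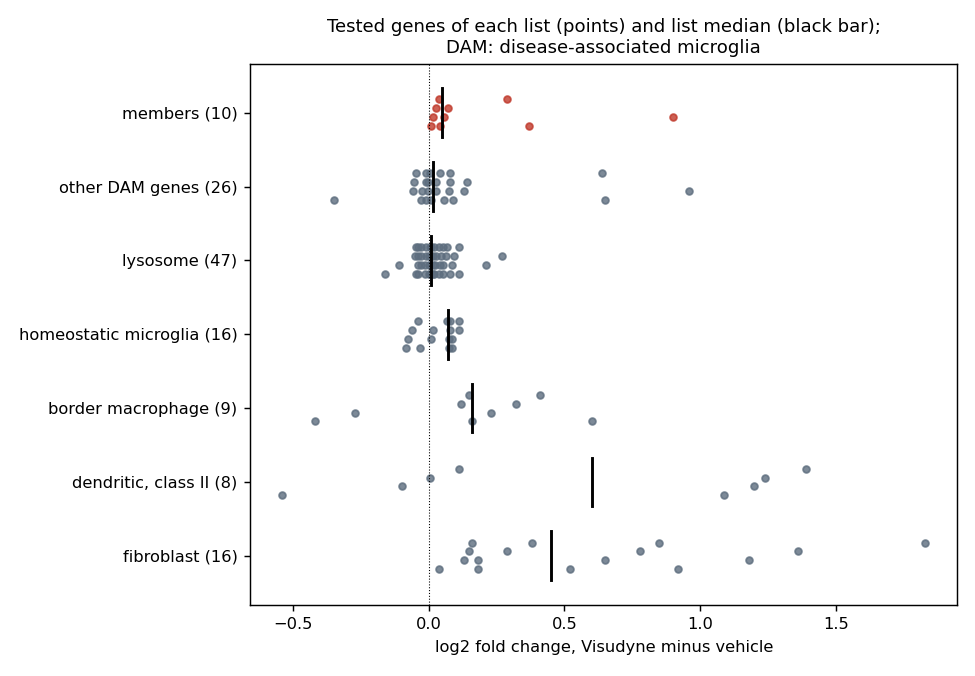
Log2 fold change, Visudyne minus vehicle, of every tested gene (points) in the 10-gene set and in some of the other lists, with the median as a bar. The lists drawn are other disease-associated microglia, lysosomal, resting microglia, border macrophage, dendritic and class II, and fibroblast genes. The set has a median of 0.049 and the lysosomal list 0.0082, while the fibroblast list lies at 0.45.

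For each gene the most similar gene was taken as that with the highest Pearson r of log2 CPM over the 10 samples, among 12972 genes of sufficient level. Spp1 was most like Thbd (r = 0.966), Ctsd most like Phyh (0.96), Cd63 most like Olfml1 (0.977) and Axl most like Fam163a (0.979). Cd9 was nearest to Adi1 (0.965), Cst7 to Casp2 (0.961), Itgax to Tenm3 (0.951), Lpl to Rev3l (0.945) and Cd68 to Akap12 (0.91). Gpnmb had the lowest such value, 0.872 with Zfp185, and it ranged from 0.785 to 0.922 when each sample was left out in turn. These are the highest of many values over the same 10 libraries and are given as a description.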

How the data were processed

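Hippocampal RNA was sequenced from stranded libraries of total RNA, per the labels' protocols. For each Ensembl gene the authors deposited estimated counts from Salmon (FastQC, mm10), per the submitters' processing notes. Tool versions: not given in the sources used here. These estimated counts were already whole, so rounding changed nothing. Reads shared by near-identical or overlapping genes are divided by estimation. Depth was 51165271 to 68895223 per sample.

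Symbols and coordinates came from GENCODE M21 (28564 of 28871 identifiers matched). The test was the quasi-likelihood F-test of edgeR 4.0.16 in R 4.3.3 on all 10 samples, with TMM, edgeR's filter on low counts (19093 genes left), no covariate and Benjamini-Hochberg adjustment over all genes tested at 0.05. The coefficient of variation between samples that edgeR estimated was 14.6% (common dispersion 0.0214), which may in part be technical. SEs came from the F statistics and 95% intervals from the t distribution with edgeR's degrees of freedom. CPM used TMM-scaled totals. The procedure was tested on simulated data.

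The 10 genes and all lists were chosen with earlier results of these data known. Named are the 10 genes, a set of genes whatever their values, and from each list the 2 genes of smallest p and any past the threshold. For each of the 10 genes the most similar gene is named as well, among genes whose log2 CPM averaged 1 or more. Some genes that this rule takes are not reported here. Ptgds, Gm49369 and Gm42793 were chosen after their values or positions were seen. Alternatives were upper-quartile and relative log expression factors, no filter or at least 1 CPM in 5 samples, DESeq2 1.42.0, limma 3.58.1 voom with and without quality weights, removal of mitochondrial genes, and leaving out each sample. No column was left out.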

Additional observations from a re-analysis of the deposited data

Results flagged for a closer look

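In 8 of 116 groups of 5 samples, each a named gene or a list sum in 1 treatment group, a sample stood apart from the other 4 by Dixon's test; chance flags about 1 in 20 groups. Among the 10 genes this was so for Spp1 alone, where Visudyne 3 measured 14.5 CPM and the other Visudyne samples 6.58 to 8.61 CPM. Clec7a, another gene of disease-associated microglia, was also apart in Visudyne 3, at 0.432 CPM beside 0.0139 to 0.0901 CPM. Trem2 was low in Visudyne 12, at 7.09 CPM beside 7.74 to 7.93 CPM. In vehicle 1, Apoe measured 887 CPM beside 657 to 707 CPM, and Tmem119 measured 15.5 CPM beside 12.7 to 13.1 CPM. Mag, a myelin gene, measured 14.8 CPM in Visudyne 15 and 3.5 to 5.7 CPM in the other Visudyne samples. Vehicle 7 was apart in the choroid plexus gene Ttr, at 179 CPM beside 4.48 to 16.0 CPM, and in the choroid plexus sum, at 225 CPM beside 32.5 to 48.1 CPM.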

How the results depend on the processing

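In all 19 alternatives, 10 of which left out a sample and 1 of which was added after seeing the data (both ends of the first principal component left out), 0 of the 10 genes were called. Itgax and Cst7 were not tested when at least 1 CPM in 5 samples was required. Spp1 ranged from 0.68 without Visudyne 3 to 1.15 without vehicle 4, with a lowest adjusted p of 0.946. The log2 fold changes of Spp1, Cst7, Itgax, Cd63 and Ctsd stayed positive in each alternative that tested them, and the other 5 changed sign in at least 1. Over all genes, 4 were higher and 0 lower with edgeR; higher genes numbered 2 with upper-quartile factors, 2 without mitochondrial genes, 16 with DESeq2, 13 with voom and quality weights, and 1 without the component's ends, and lower genes 2 with DESeq2 and 1 without those ends. Leaving out 1 sample gave 0 to 4 higher genes (0 without Visudyne 3, Visudyne 6 or vehicle 7, and 1 without Visudyne 9, 12 or 15 or vehicle 10 or 13) and 0 to 1 lower (1 without vehicle 1). Signs that changed with voom and quality weights were Lpl (-0.022), Gpnmb (-0.0249), Trem2 (0.0312) and Ctsb (0.00727), and without the component's ends Lpl (-0.0559), Tyrobp (0.126), Trem2 (0.0308) and Ctsb (0.052). Others were Tyrobp with voom (0.0469), Trem2 with upper-quartile factors (0.00551) and with the stricter filter (0.0107), and Tfeb with DESeq2 (-0.00475); the cause was not tested. With 1 sample left out, ranges that crossed 0 were -0.0181 to 0.0905 for Lpl, -0.0174 to 0.0498 for Axl, -0.0444 to 0.0943 for Cd9, -0.031 to 0.0658 for Gpnmb, -0.00838 to 0.123 for Cd68, -1.82 to 0.647 for Ttr, -0.781 to 0.167 for Tyrobp, -0.0385 to 0.0355 for Trem2, -0.0186 to 0.0894 for B2m, -0.0579 to 0.0123 for Ctsb, -0.0291 to 0.0639 for Lamp1, -0.0109 to 0.0423 for Lamp2, -0.0225 to 0.0658 for Cx3cr1 and -0.0712 to 0.078 for Tfeb. No paired analysis was possible because the groups share no sample number. Itgax and Cst7 rest on few counts, 6 to 23 per sample, and the effect of depth on them was not tested.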
